A study of Mus musculus with 10 samples.

Results

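The strongest compact open sites of muscle stem cells after prostaglandin E2 (PGE2) are 892 genomic regions that stood high in both the aged and the young list of accessible regions. They were chosen from the deposited values. Within each list, touching or overlapping rows were joined into 1 region, keeping the summit (the highest point of a peak) of greatest significance. A young region entered if it was under 4000 bp wide, had a summit fold over background of at least 120, and overlapped an aged region of at least 80-fold. These 892 sites were drawn from 117284 aged and 131656 young regions. Of the young regions, 1202 reached 120-fold and 1094 of those were under 4000 bp, so 202 strong compact young regions did not enter. Their aged folds ran from 52 to 79.9. Each of the 892 sites overlapped exactly 1 aged region of 80-fold or more, and no aged region was used more than 1 time.

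C57BL/6 mice gave the muscle stem cells, which flow cytometry had sorted for α7-integrin and CD34 and which were kept for 2 h in culture medium with PGE2 or with the vehicle, 0.1% DMSO. Aged mice were 20 to 25 months old and young mice 8 to 20 weeks. The series describes 10 libraries, namely 3 aged with PGE2, 2 young with PGE2, 3 aged with vehicle and 2 young with vehicle. The values used here are 1 list per age, both after PGE2, and the vehicle groups were not analysed here. ATAC-seq, the assay used, marks open DNA by letting a transposase cut and tag it. Neither list separates its libraries, so differences between ages have no replicate error and were not tested. Fold values are the authors' own, belong to their list, and are given side by side without being a measure of change.

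Open chromatin is DNA cleared of nucleosomes where transcription factors and RNA polymerase can reach it. The start regions of broadly active genes tend to be open in most cell types, and most of them are rich in CpG dinucleotides. Such promoters carry short motifs for general activators, among them the CCAAT box, which is bound by the trimeric factor NF-Y, and the GC box, which is bound by SP and KLF factors. PGE2 raises cAMP through its EP2 and EP4 receptors. cAMP frees the catalytic subunit of protein kinase A, which phosphorylates CREB, a factor that binds the cAMP response element (CRE).

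Promoter sequences of 8 sites are shown because the report turns on the motifs they hold. They are the RefSeq windows from 250 bases before to 50 bases after the gene start (GRCm38.p6), 5′ to 3′ on the gene's own strand. Capitals mark the CCAAT box in either orientation (CCAAT or ATTGG) and the full CRE (TGACGTCA). Cggbp1 and Hspa2 had the strongest young folds among the named sites with a window, and Cycs was the one CRE holder among them. Eml6, Prkaca, Hsp90b1, Id2 and Creb1 were picked after their sequences were seen, to show many boxes and none.
Cggbp1 (chr16:64851751-64852050, plus strand): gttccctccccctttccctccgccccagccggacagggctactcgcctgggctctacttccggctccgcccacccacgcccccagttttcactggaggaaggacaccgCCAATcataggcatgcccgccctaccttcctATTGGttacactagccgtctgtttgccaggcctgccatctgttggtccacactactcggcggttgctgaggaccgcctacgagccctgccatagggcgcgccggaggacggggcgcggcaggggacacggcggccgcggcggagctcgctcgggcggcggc
Hspa2 (chr12:76404120-76404419, plus strand): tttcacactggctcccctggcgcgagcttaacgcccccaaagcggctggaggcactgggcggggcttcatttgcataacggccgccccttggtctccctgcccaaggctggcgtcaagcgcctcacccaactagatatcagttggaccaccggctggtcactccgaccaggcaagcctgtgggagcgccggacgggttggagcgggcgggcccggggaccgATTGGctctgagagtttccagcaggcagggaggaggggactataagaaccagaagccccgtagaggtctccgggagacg
Eml6 (chr11:30025984-30026283, minus strand): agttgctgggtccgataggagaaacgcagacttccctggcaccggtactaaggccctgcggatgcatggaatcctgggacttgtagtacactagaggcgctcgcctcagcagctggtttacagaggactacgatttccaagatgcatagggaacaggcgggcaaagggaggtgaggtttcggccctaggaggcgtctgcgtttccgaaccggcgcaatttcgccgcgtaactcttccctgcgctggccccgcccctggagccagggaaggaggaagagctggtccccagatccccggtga
Cycs (chr6:50566520-50566819, minus strand): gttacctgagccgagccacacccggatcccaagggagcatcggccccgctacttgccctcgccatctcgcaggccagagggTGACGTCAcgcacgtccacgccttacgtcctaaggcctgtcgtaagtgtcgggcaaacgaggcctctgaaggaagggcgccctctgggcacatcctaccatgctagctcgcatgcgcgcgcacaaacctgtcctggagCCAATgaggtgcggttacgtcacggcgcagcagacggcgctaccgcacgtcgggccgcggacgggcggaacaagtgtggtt
Prkaca (chr8:83972728-83973027, plus strand): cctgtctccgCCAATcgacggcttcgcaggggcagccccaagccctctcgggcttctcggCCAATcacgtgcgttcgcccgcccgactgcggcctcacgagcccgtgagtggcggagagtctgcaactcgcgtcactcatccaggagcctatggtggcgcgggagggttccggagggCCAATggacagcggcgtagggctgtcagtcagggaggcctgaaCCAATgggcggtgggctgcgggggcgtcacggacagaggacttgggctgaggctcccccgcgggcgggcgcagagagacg
Hsp90b1 (chr10:86705395-86705694, minus strand): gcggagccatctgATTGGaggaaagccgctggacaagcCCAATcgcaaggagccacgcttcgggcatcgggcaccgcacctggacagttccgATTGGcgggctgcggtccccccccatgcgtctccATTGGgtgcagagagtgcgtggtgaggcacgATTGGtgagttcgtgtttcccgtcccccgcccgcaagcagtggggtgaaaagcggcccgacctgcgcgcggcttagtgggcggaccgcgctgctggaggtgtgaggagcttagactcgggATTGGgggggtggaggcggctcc
Id2 (chr12:25096043-25096342, minus strand): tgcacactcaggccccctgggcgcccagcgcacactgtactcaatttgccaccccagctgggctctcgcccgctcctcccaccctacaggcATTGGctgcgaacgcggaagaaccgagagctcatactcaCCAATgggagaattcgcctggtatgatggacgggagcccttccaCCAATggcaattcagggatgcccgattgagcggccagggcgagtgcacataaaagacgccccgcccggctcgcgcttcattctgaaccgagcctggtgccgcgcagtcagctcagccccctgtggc
Creb1 (chr1:64532554-64532853, plus strand): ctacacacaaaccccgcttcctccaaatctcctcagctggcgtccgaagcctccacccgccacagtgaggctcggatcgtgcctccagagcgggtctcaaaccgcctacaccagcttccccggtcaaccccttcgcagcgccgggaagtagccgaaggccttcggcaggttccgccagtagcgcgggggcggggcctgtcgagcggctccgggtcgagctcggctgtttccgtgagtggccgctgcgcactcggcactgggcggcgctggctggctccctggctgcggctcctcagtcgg

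In these 8 windows the number of CCAAT boxes ran from 0 at Creb1 and Eml6 to 6 at Hsp90b1. Prkaca held 4, all in forward orientation, beginning 240, 190, 73 and 30 bases before the start. Id2 held 3 and Cggbp1 held 2. Hspa2 and Cycs held 1 each. The single CRE of the 8 lay in the Cycs window, with its first base 169 bases before the start of this gene for cytochrome c, the electron carrier of the respiratory chain.

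The folds of the 892 sites, which chose them, ran in the aged list from 80 to 4362 with a median of 98.7. In the young list they ran from 120 to 2493 with a median of 153. With the background recovered from the fold steps, the lowest aged summit stood on 1664 fragments and the lowest young summit on 2732, so counting error at any single summit was small beside the folds. The medians were 2053 and 3465 fragments in the aged and young lists. The median width was 1934 bp in the aged list (middle range 1596 to 2357 bp) and 2241 bp in the young list (1893 to 2742 bp). All 892 lay in the top 1% of the young list and 879 (98.5%) in the top 1% of the aged list by the caller's significance, as the rule fixes. Near the limits, Synpo2 (aged 82.7, young 120), Met (104 and 121) and Aph1b (84.7 and 121) were the last inside the young limit. Selenok (83.5 in the aged list), Parp11 (81.8) and Ift27 (81.5), each just below 120 in the young list, stayed out. On the aged side Elac2, Ephb3 and Slc4a7 entered just above 80, while Trim24 (79.9), Helb (79.8) and Mrpl39 (79.8) stayed out. At the width limit Mogat1 (3996 bp), Pnrc1 (3993 bp) and Acvr1 (3988 bp) entered, while Ube2d3 (4006 bp), Ivns1abp (4027 bp) and Fzd7 (4033 bp) did not.

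**Figure D1:**
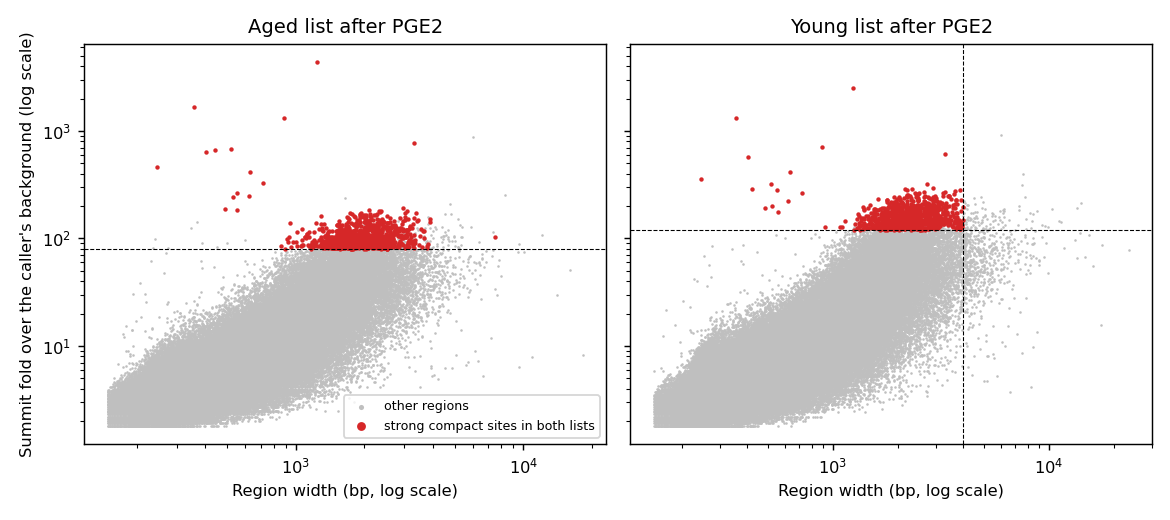
Summit fold over the caller's background against region width in the aged list (left) and the young list (right), both on log scales, with the 892 strong compact sites in red, all other regions in grey and the limits of the rule dashed. Most of the 892 sites form a dense group about 2 kb wide, and a few narrow sites stand far above it in both lists.

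Most of the strong compact sites lay at gene ends. The summit was within 1 kb of an end of a protein-coding gene span for 725 of 892 (81.3%, 95% exact binomial interval 78.6 to 83.8), against 11.9% of all young regions. The position of genes was not used by the rule. The share in other young regions under 4000 bp was 5.6% below 10-fold, 12.5% at 10- to 30-fold, 38.5% at 30- to 60-fold and 64.9% at 60- to 120-fold. Among the 108 young regions of 120-fold or more that were 4000 bp or wider it was 70.4% (60.8 to 78.8). The 202 strong compact regions whose aged fold was under 80 had 82.2% (76.2 to 87.2), which was within counting error of the share of the 892. These intervals are about counting regions, not about variation between mice. Gene spans can include predicted transcripts, and 49 of the 167 sites away from a gene end had a protein-coding start of the promoter table within 1 kb.

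**Figure D2:**
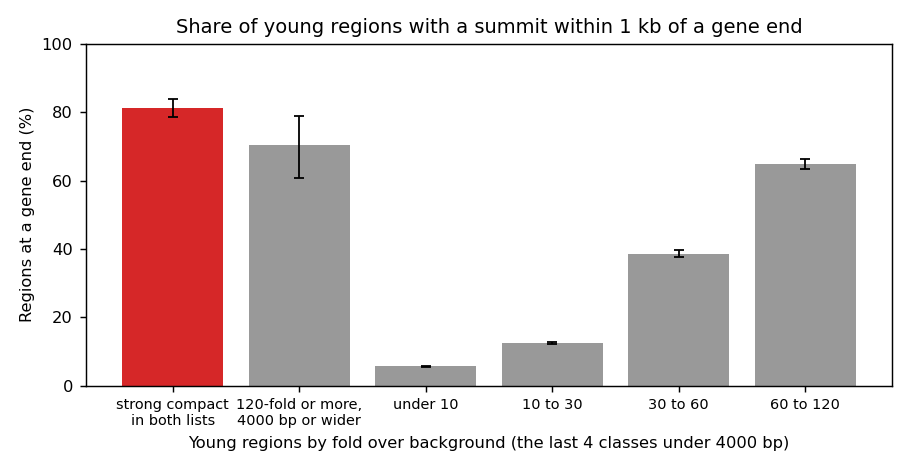
Share of young regions (%) with a summit within 1 kb of a protein-coding gene end, for the 892 strong compact sites, for regions of 120-fold or more that are 4000 bp or wider, and for narrower regions by fold. Bars show the share and whiskers the 95% exact binomial interval over regions; the share climbs with fold from 5.6% to 81.3% among compact regions.

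Where a gene start of the promoter table lay within 1 kb, the summit sat just upstream of it. For these 627 sites the median summit was 92 bp before the start in the aged list (middle range 157 to 47 bp before) and 87 bp before it in the young list (153 to 39 bp before). The summit was upstream for 554 sites (88.4%) in the aged list and for 542 (86.4%) in the young list. It was within 250 bp of the start for 551 sites (87.9%) in the aged list and 553 (88.2%) in the young list. At Hspa2 the summit was 90 bp upstream in the aged list and 91 bp in the young list. At Prkaca these distances were 103 and 97 bp, and at Cycs 95 and 68 bp.

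Neighbouring genes often shared a site. The summit was within 1 kb of the ends of 2 or more protein-coding genes for 152 sites (17%, 14.6 to 19.7), against 1.49% of all young regions and 11.7% (10.8 to 12.6) of regions of 60- to 120-fold under 4000 bp. In the 202 strong compact regions that did not enter it was 15.3% (10.7 to 21.1), within counting error of the share of the 892. Among sites at a gene end the share was 21%, against 18% in that 60- to 120-fold class and 18.7% in the 202 regions. Of the 892 sites, 89 held starts of a minus-strand and a plus-strand gene pointing away from each other, with a median of 224 bp between the starts, and in 2 more the starts of such a pair overlapped. Pairs of this kind were not counted at other young regions, so whether they are more frequent here is not known. The strongest such pair in the young list was Etfdh, which encodes an electron transfer oxidoreductase of mitochondria, and 4930579G24Rik, with 312 bp between starts and folds of 157 (aged) and 251 (young). It was followed by Mkks, a gene of a chaperonin-like protein, and Slx4ip, with 188 bp between starts and folds of 164 (aged) and 243 (young).

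Of the motifs searched, the CCAAT box showed the widest gap, in percentage points, between these promoters and those of other open regions. Promoter windows of protein-coding genes were overlapped by 633 sites, with 836 windows of 745 genes in all, and windows of neighbouring or alternative starts can share sequence. A CCAAT box was found on either strand in 537 of the 836 windows (64.2%, 60.9 to 67.5). The share was 37.5% in windows overlapped by any young region, 38.2% in all 21262 windows of the table and 43.3% (41.7 to 44.9) at regions of 60- to 120-fold under 4000 bp. At the strong regions of 4000 bp or wider it was 41.9%. Promoter windows at the 202 strong compact regions that did not enter were not searched for motifs. Whether the CCAAT share is particular to the 892 sites is therefore not known. Windows with 2 or more boxes made up 40.1% at the strong compact sites and 19.3% at the 60- to 120-fold class. With 1 window per site, the one nearest the summit, the share was 68.4% (64.6 to 72), against 44.5% (42.7 to 46.4) in that class. The motif is a description of the letters in these windows and not of binding.

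The CCAAT share was higher at the strong compact sites in each class of GC content. Windows were split at equal parts of the GC content of all open promoters. In the lowest GC class 68.3% of windows at the strong compact sites held a box, against 53.8% in the 60- to 120-fold class. In the middle class the shares were 72.1% and 47.9%, and in the highest class 52.9% and 32.2%. The intervals of each pair did not overlap, but they count each window as separate, although windows of a site can share sequence. Shares by site were not computed within the GC classes. Within the 892 sites the share was also listed by young fold, a value the rule used, so this split is a description only. The share was 74.4% (68 to 80.2) in the 211 strongest sites with a window, 68.2% in the next 211 and 62.6% (55.7 to 69.1) in the weakest 211. The intervals of the strongest and the weakest overlapped.

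The boxes were densest near the positions of the summits, though many lay elsewhere. From 110 to 51 bp before the start lay 34.7% of boxes at the strong compact sites, where an even spread gives 20%. The share was 33.7% in the 60- to 120-fold class and 32.5% at any young region. Per 100 windows, boxes were most frequent 70 to 51 bp before the start, with 16.6 at the strong compact sites and 10.6 in the 60- to 120-fold class. Farther upstream, at 210 to 191 bp before the start, the values were 9.09 and 2.95. Of the 1113 boxes at the strong compact sites, 585 (52.6%) were in forward orientation. In the 452 windows that held both the young summit and a box, the nearest box was a median of 24 bp from the summit (middle range 10 to 44 bp). The same distance was 48 bp for the GC box and 64 bp for the ETS motif. In the 60- to 120-fold class these distances were 24, 36 and 46.5 bp. A window with several boxes has a nearer one by count alone, which was not corrected for.

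**Figure D3:**
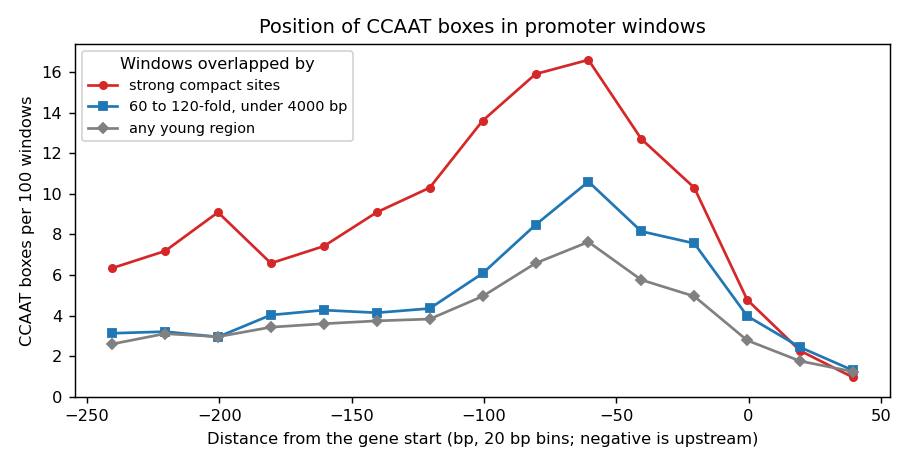
CCAAT boxes per 100 promoter windows in 20 bp bins by distance from the gene start (bp), for windows overlapped by the strong compact sites (red), by regions of 60- to 120-fold under 4000 bp (blue) and by any young region (grey). All 3 curves peak between 70 and 51 bp before the start, and the red curve lies above the others everywhere upstream.

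The other motifs searched showed smaller gaps, in percentage points, to any young region and to the 60- to 120-fold class. A rare motif has less room for such a gap than a common one. Against all windows of the table the gap of the GC box was wider than that of the CCAAT box. Each motif was searched on both strands. The GC box of SP and KLF factors (GGGCGG) was in 77.9% (74.9 to 80.6) of windows at the strong compact sites, against 66.4% of windows at any young region, 72.6% (71.1 to 74) in the 60- to 120-fold class and 46.2% of all windows. The ZNF143 core ACTACA was in 16.5% (14.1 to 19.2), against 9.93%, 11.6% (10.6 to 12.7) and 10.3%. The ETS motif CCGGAAG was in 19.9% (17.2 to 22.7), against 17.0%, 22.7% and 11.6%, and the NRF1 motif in 10.3%, against 9.89%, 12.3% and 6.38%. The YY1 motif AAGATGGC was in 5.02%, against 4.10%, 4.64% and 3.05%. The E-box CACGTG was in 7.78% (6.05 to 9.8), against 1328 of 13260 windows at any young region, 10.4% in the 60- to 120-fold class and 7.84% of all windows. The TATA box TATAAA was in 3.59% (2.43 to 5.08), against 6.54%, 4.94% and 12.6%. The AP-1 motif TGANTCA was in 3.35%, against 4.98%, 4.25% and 6.99%, and the heat shock motif GAANNTTC in 5.74%, against 5.38%, 5.15% and 7.21%. Median GC content was 63.3% and the median CpG observed over expected ratio 0.827 at the strong compact sites, against 61.7% and 0.765 at any young region and 63% and 0.827 in the 60- to 120-fold class.

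The share of the CRE, the element that CREB binds, was within counting error of that at other open promoters. The full CRE was in 26 of 836 windows (3.11%, 2.04 to 4.52), against 3.20% of windows at any young region, 4.25% in the 60- to 120-fold class and 2.23% of all windows. The CRE core TGACG, which the full CRE contains, was in 39% (35.7 to 42.4), against 31.2%, 38.2% and 23.6%. Windows of neighbouring or alternative starts can share sequence, so these intervals over windows can be too narrow. No share by site was computed for the CRE. The windows with a full CRE included those of Cycs, of Birc2, an inhibitor of apoptosis, and of Ell2, an elongation factor that also had 3 CCAAT boxes. Those of Larp7 and Zgrf1 each had 2 full CRE matches. This pair points away from each other at the same site with 140 bp between starts. Their windows overlap, so the matches can be the same letters. These 4 examples beside Cycs were named after their sequences were seen.

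**Figure D4:**
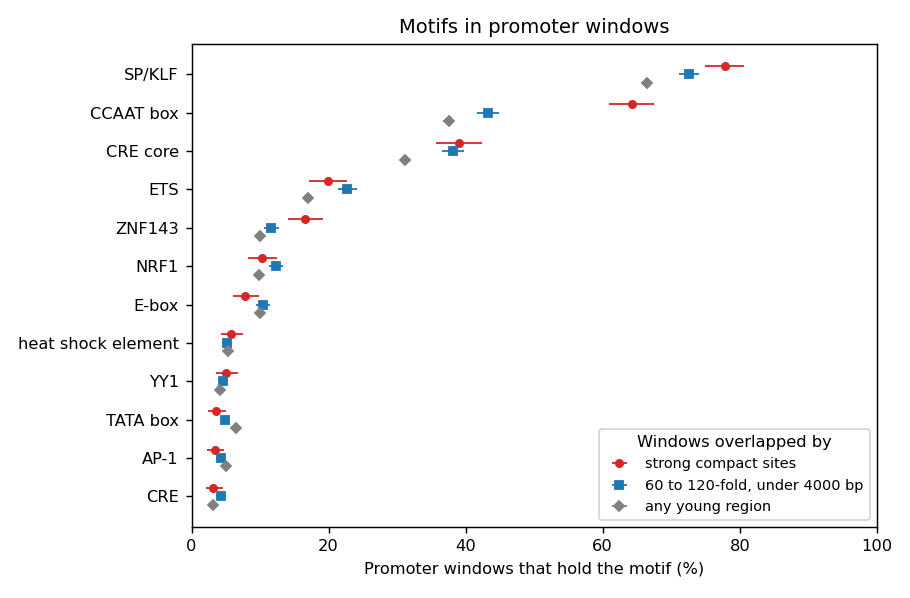
Share of promoter windows (%) that hold each motif on either strand, for windows overlapped by the strong compact sites (red circles), by regions of 60- to 120-fold under 4000 bp (blue squares) and by any young region (grey diamonds), with 95% exact binomial intervals. The CCAAT box shows the widest gap between the red and blue symbols, 64.2% against 43.3%.

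Of the 21883 protein-coding genes, 878 (4.01%) had an end within 1 kb of one of the 892 summits. Of the 12992 with a summit of each list within 1 kb of an end these are 6.76%. Genes of that kind are called open below. The share of all genes in a list stands beside 4.01%, and the share of its open genes beside 6.76%. Of the 37 genes of cAMP and CREB signalling 4 had an end near a summit of the 892 (10.8%), or 12.9% of the 31 open ones. Prkaca, which encodes the catalytic subunit of protein kinase A, had folds of 114 (aged) and 189 (young), ranks 279 and 197 of its lists. Creb1, the gene of CREB itself, had 99.2 and 172. Crem, a related factor gene with cAMP-inducible repressor forms, had 90.3 and 162, and Akap13, which encodes an anchoring protein of protein kinase A, had 88.8 and 147. Ptger4, which encodes the EP4 receptor, lay instead at a strong region of 4000 bp or wider.

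No immediate early gene or gene of stem cell identity lay at a site, which is close to what the share over open genes gives for lists of this size. None of the 26 immediate early and AP-1 genes had an end at one of them, although 23 had a region at an end in the aged list and in the young list, a number for which 6.76% comes to 1.6 genes. Of these 26, 7 (Fosl2, Jun, Egr1, Klf6, Klf10, Btg1 and Myc) lay at strong regions of 4000 bp or wider, a class that held 83 protein-coding genes in all. None of the 36 muscle stem cell and quiescence genes was at a strong compact site or at a strong wide region, while 31 had a region at an end in each of the lists, for which 6.76% comes to 2.1 genes. Of 19 circadian clock genes, 17 of them open in both lists, none was at a strong compact site, where 6.76% comes to 1.1 genes, and the strong wide regions held Nr1d2 and Bhlhe40.

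Chaperone and cell cycle genes had the highest shares among the lists. Of 31 heat shock and chaperone genes, 6 (19.4%) lay at a site, or 20.7% of the 29 open ones. Hspa2, a member of the Hsp70 family, had folds of 144 (aged) and 250 (young). Dnajb9 and Hsp90b1, which encode chaperones of the endoplasmic reticulum, had 107 and 127 in the aged list and 200 and 182 in the young list. Tcp1, a subunit of the cytosolic chaperonin, had 92.7 and 140, Stip1, a co-chaperone of Hsp90, 95.2 and 131, and Hsph1, a large Hsp70 relative, 81.7 and 135. Hspa5, Hspa8 and Dnajb1 lay at strong wide regions. Of 38 cell cycle genes, 5 (13.2%) lay at a site, or 13.9% of the 36 open ones. They were Ccna2 (cyclin A2; aged 121, young 187), the replication helicase gene Mcm3 (114 and 185), Ccng1 (94.8 and 175), Ccng2 (97.5 and 150) and the polymerase clamp gene Pcna (85.7 and 129). The end of Bbs7 was also near the Ccna2 summit.

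Of 24 genes of p53 and stress response, 3 (12.5%) lay at a site. Gadd45a, a growth arrest and DNA damage gene, had 116 (aged) and 185 (young), the antioxidant factor gene Nfe2l2 87.7 and 145, and Trp53inp1 83.6 and 140. Translation factors had 3 of 32 (9.38%), led by Eif4g2 (118 and 193), and cytosolic ribosomal protein genes 6 of 74 (8.11%), led by Rpl37 (141 and 209) at a summit it shared with an end of Card6. Mitochondrial import and respiration had 3 of 38 (7.89%), namely Tomm40, a pore of the outer membrane (116 and 170), the phosphate carrier gene Slc25a3 (82.6 and 152) and Cycs (86 and 128). Ubiquitin and proteasome genes had 3 of 40 (7.5%), of which Ube2n, an enzyme that builds ubiquitin chains, was highest in the young list (87.5 aged, 191 young) and Ube2s in the aged list (94.5 and 124). TGF-β, Wnt and Hippo genes had 3 of 37 (8.11%), namely Id2, an inhibitor of differentiation factors (102 and 171), and the receptor genes Tgfbr1 (87.6 and 127) and Acvr1 (82.6 and 127). Splicing genes had 2 of 40 (5%), Hnrnpc and Sf1. NF-κB and cytokine genes had 1 of 30 (3.33%), Il6st, which encodes the gp130 receptor chain (115 and 157). Chromatin regulators had 1 of 47 (2.13%), H2az1, and mature fibre genes 1 of 23 (4.35%), Mylpf, at a summit it shared with an end of Tbc1d10b. Over open genes only, the share was 13% for the p53 list and 9.38% for translation factors. It was 8.22% for ribosomal, 8.57% for mitochondrial, 7.69% for ubiquitin and proteasome, and 8.82% for TGF-β, Wnt and Hippo genes. Splicing genes had 5.56%, NF-κB and cytokine genes 3.57% and chromatin regulators 2.44%. Mature fibre genes, of which 14 were open, had 7.14%. Counts of 1 to 6 genes carry wide counting error, and no list was tested.

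Of 10 muscle stem cell markers, 8 had a region at an end in each of the lists and none was at a strong compact site, where 6.76% of 8 comes to 0.54 genes. Pax7 had gene-end folds of 16.6 (aged) and 26.7 (young), and Myf5 41.9 and 52.4. Of 5 markers each, smooth muscle cells and pericytes had 5 in both lists, fibroblasts 4, glia 3, endothelium 1 and immune cells 0, and none of these was at a strong compact site either. Their part in the results was not tested.

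Aged and young summits lay close together at these sites. The aged summit was a median of 7 bp from the young summit (middle range 3 to 13 bp), and 603 sites (67.6%) had summits within 10 bp, against 38.9% of all 94504 young regions with an overlap. In 41 sites the summits fell on the same base. The share within 10 bp was 59% in regions of 60- to 120-fold under 4000 bp and 29.3% below 10-fold. The largest distances were 473 bp at 1 of the sites on chromosome 2 described below, 469 bp between the starts of Serpini1 and Pdcd10, 397 bp at Ensa and 337 bp at Ipo5. For 30 sites the distance was over 100 bp.

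Aged regions were narrower at most sites, as in the lists as a whole. The aged width was a median of 88.2% of the young width (middle range 80 to 95.8), against 83% over all overlapped young regions and 87.2% in the 60- to 120-fold class under 4000 bp. It was smaller in 803 sites (90%), equal in 5 and larger in 84, while 76.7% of all overlapped young regions had a narrower aged region. The overall depth of the 2 lists differs in an unknown way and moves width at a fixed threshold, so the difference cannot be told apart from one of depth. The lowest ratios were 41.5% at a site inside Sema6d (1609 bp aged, 3877 bp young), 46.3% at Eml6 (1283 and 2769 bp), 47.3% at Hsph1 (1491 and 3151 bp) and 51.2% at Stk11 (1927 and 3766 bp). The highest was 251% at Id2, where the aged region of 7478 bp spanned 2 young regions, of 171-fold and 60.9-fold. It was followed by 129% at Asf1b, 119% at Tomm40l and 119% at Parp2.

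**Figure D5:**
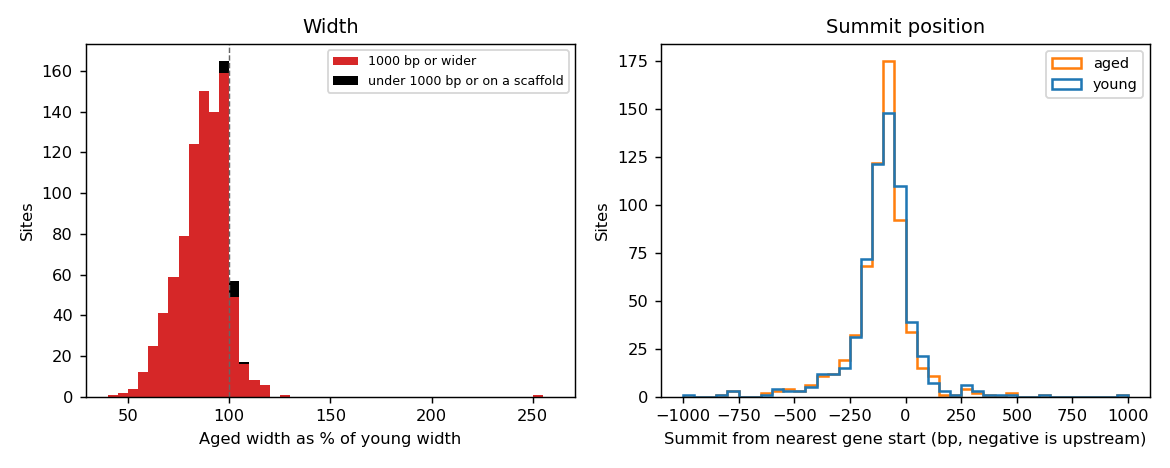
Left, the number of strong compact sites by aged width as a percentage of young width, with sites under 1000 bp or on unplaced scaffolds in black and a dashed line at equal width; right, the number of sites by summit position relative to the nearest gene start (bp), in the aged and the young list. Most widths fall below 100%, the black sites fall at about 100%, and both summit curves peak upstream of the start.

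A site usually held several of the authors' summits. The median was 4 in the aged list and 5 in the young list, against 1 over all young regions, most of which were narrower. In the young list it was 4 at 60- to 120-fold under 4000 bp and 5 in the 202 strong compact regions that did not enter. It was 12 in the strong regions of 4000 bp or wider, so it is not particular to these sites. Neighbouring summits within a site were a median of 377 bp apart in the aged list and 373 bp in the young list. Aged regions held fewer summits than young ones in 428 sites, the same number in 279 and more in 185. In 194 sites the young region overlapped 2 or more aged regions, and in 11 the aged region overlapped 2 or more young regions. Like counts over other regions are not given here, so these counts only describe the sites.

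A small set of sites stood apart from the promoters. There were 14 sites under 1000 bp in the young list, and with a wider site on an unplaced scaffold they made 15, a grouping made after the values were seen. Only 1 of the 14, in Lars2 on chromosome 9 (123461716 to 123462268), was at a gene end. Of the 12 highest members in the aged list 11 belonged to the 15, and of the 12 highest in the young list 7 did. The strongest of all 892 sites lay on chromosome 2 at 98666166 to 98667401, with folds of 4362 (aged) and 2493 (young), rank 1 in both lists. It is not among the 15, since it is 1236 bp wide, and it lay 1035479 bp from the nearest protein-coding gene end, that of Lrrc4c. Its edges and summit fell on the same bases in both lists. Within 5 kb of it lay 98662163 to 98663051 (1315 aged, 702 young) and 98664888 to 98665293 (632 and 567).

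The next strongest lay inside the span of Chl1 on chromosome 6 (103649004 to 103649362), with folds of 1671 (aged) and 1328 (young). Others lay on chromosome 9 at 35305145 to 35305661 (680 and 321), on chromosome X at 143482935 to 143483180 (461 and 354), on chromosome 3 at 5860264 to 5860896 (417 and 418) and on chromosome 16 at 57391048 to 57391766 (326 and 265). Their edges met in the 2 lists. For the 15 sites the larger of the edge differences was a median of 2 bp and at most 24 bp, against a median of 225 bp for the 724 wider sites at gene ends. Aged width was 98.9% to 105% of young width for the 15, while it ran from 46.3% to 251% at gene ends. Both edges lay within 10 bp between the lists in 14 of the 892 sites (1.57%), against 2.59% of all overlapped young regions, and 12 of the 14 were under 1000 bp. A single summit was listed in the aged list for 11 of the 15 and in the young list for 11. The number of genomic copies behind these sites and behind the strongest site on chromosome 2 was not analysed here. Whether their folds come from open DNA or from sequence held in several copies was therefore not tested. Without the 15, but with the strongest site on chromosome 2 kept, the share of sites at a gene end was 82.6%. The median width ratio was 88%, and both values were within their intervals. So few sites could hardly move these values. Dropping them left the same 836 promoter windows, so the CCAAT share could not change.

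Away from gene ends and at least 1000 bp wide lay 96 sites inside gene spans and 57 between genes. Between genes the median fold was 100 in the aged list and 139 in the young list, against 97.7 and 153 at gene ends, and the median widths were 2011 and 2174 bp, against 1942 and 2255 bp. With starts of protein-coding and long noncoding genes also counted, 99 wide sites had neither a gene end nor a listed start within 1 kb. The farthest from any protein-coding gene end, leaving out chromosome 2, was on chromosome 15 at 63035743 to 63037109, with folds of 120 (aged) and 133 (young), 739622 bp from Gsdmc. On the same chromosome a site at 62327146 to 62329821 (116 and 148) lay 338081 bp from Myc. A site on chromosome 8 at 73351663 to 73355001 (106 and 171) lay 589787 bp from F2rl3.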

How the data were processed

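Per the submitters' processing notes, Bowtie2 and the mm10 (GRCm38) build were used for these ATAC-seq reads of muscle stem cells. The authors deposited 1 MACS list per age after PGE2, as narrowPeak rows, with 215838 aged and 265507 young rows. The caller's version, options, read filters, cut-site shift and pooling were not given in the sources used here. Each deposited row holds the authors' fold ratio, a −log10 q-value and the summit position; the column of −log10 p-values was not used. Folds were whole multiples of 1 step in 100% of rows below 200-fold (tolerance 0.05 of a step), which gave a background of 19.8 (aged) and 21.7 (young) fragments. Library depth is unknown.

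Members, regions and lists were chosen with earlier results of these data known. Rows were merged, and overlap meant at least 1 bp. Gene spans (21883 protein-coding genes) and promoter windows (21262, for 17491 genes, none on chromosome 18) came from RefSeq tables of GRCm38.p6. The spans carry no exons or UTRs, so none are stated. Gene symbols were matched directly or by synonym. Intervals are 95% Clopper-Pearson and cover counting error only. Since each age has 1 list, no test was run. Named sites were the 10 highest per list, up to 4 per gene list, and the extremes of distance, width, width ratio and summit distance. Names given outside this rule, such as head-to-head pairs and CRE holders, were chosen after values were seen. The merging and selection were tested on simulated data. Python 3.11.15, pandas 2.3.3, numpy 2.4.6, scipy 1.17.1 and matplotlib 3.10.9 were used. Alternatives changed the fold and width limits, summit choice, merging, overlap, gene-end window and promoter choice.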

Additional observations from a re-analysis of the deposited data

How the results depend on the processing

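With 22 values and 11 settings, 164 of 192 values stayed within the interval of the value reported (for the number of sites, within 1.5 times), and 28 moved. Some settings could move little or nothing, so this count does not measure stability. Choosing the summit by highest fold again gave 892 sites, 81.3% at a gene end and a CCAAT share of 64.2%. Limits of 150-fold (young) and 100-fold (aged) left 365 sites, with 100% in the top 1% of both lists, a CCAAT share of 70.4% and a YY1 share of 2.64%. Limits of 100-fold and 60-fold gave 1749 sites, with 52.7% in the top 1% of both lists, 78.4% at a gene end, a CCAAT share of 57.4% and a ZNF143 share of 13.9%. Young regions under 2000 bp left 311 sites, with 77.8% at a gene end, medians of 3 aged and 3 young summits per site, and motif shares of 74.7% (CCAAT), 1.89% (CRE), 25.7% (ETS), 7.55% (YY1), 71.7% (GC box) and 21.5% (ZNF143). Median GC content was then 60% and the CpG ratio 0.806. Merging rows up to 100 bp apart put 96.5% in the top 1% of both lists. Gene-end windows of 500 bp gave 77.6% at a gene end. Windows of 2.5 kb gave 84.8% at a gene end and 20.9% at 2 or more. With starts within 250 bp of a summit the shares were 70.7% (CCAAT), 81.1% (GC box) and 1.68% (TATA box). The cause of these shifts was not tested beyond the change of sites itself. Leaving out the 15 sites under 1000 bp or on scaffolds, a setting chosen after seeing the data, moved no value out of its interval. It dropped few sites and left the same 836 promoter windows, so the motif shares could not move. No paired analysis was possible because each age has 1 list with no value per library. Depth per library is unknown, which limits any reading of widths and folds across ages.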

Other observations

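The strong compact sites were spread unevenly over the chromosomes. Among young regions at a gene end, the share that were strong compact sites was highest on chromosome 12 (50 of 557, 8.98%), chromosome 18 (33 of 399, 8.27%) and chromosome 1 (69 of 948, 7.28%). It was lowest among autosomes on chromosome 19 (9 of 559, 1.61%), chromosome 11 (34 of 1281, 2.65%) and chromosome 17 (21 of 737, 2.85%), and it was 0.855% on chromosome X (4 of 468). The first 3 chromosomes hold 5.66, 5.63 and 6.17 protein-coding genes per Mb and the next 3 hold 11.5, 13.2 and 11.2, while chromosome X holds 5.66. Around gene-end regions, the number of protein-coding genes starting within 500 kb had a median of 9 at the strong compact sites, 13 at regions of 60- to 120-fold under 4000 bp and 15 over all young regions. Of gene-end regions with up to 9 such neighbours, 8.12% (95% interval 7.35 to 8.95) were strong compact sites, against 2.22% (1.78 to 2.73) of those with 27 or more. Among gene-end regions of 30-fold or more these shares were 15.9% and 5.1%.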
